A study of Danio rerio with 18 samples.

Results

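The genes described here are the nucleic acid sensors IFIH1, DHX58 and tlr3, the adaptor and trafficking genes mavs, ticam1 and UNC93B1, the interferon regulatory factors IRF7 and irf9, and the signal transducer stat2. They were picked by symbol, with case ignored and a trailing a or b allowed to be absent, and every gene ID that shared a symbol was kept. The 9 symbols described were found on 9 of the 32105 gene IDs in the count tables.

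The study compared zebrafish larval livers with and without a homozygous hi272 insertion in uhrf1, a gene needed to copy DNA methylation onto newly made DNA, each in solvent or in palbociclib, an inhibitor of the cell cycle kinases CDK4 and CDK6. All larvae were of strain ABNYU, came from carrier parents and carried Tg(fabp10a:CAAX-EGFP), which labels hepatocytes with a membrane fluorescent protein. Both treatments ran from 48 to 120 h after fertilization, with 0.5% DMSO in every group and 20 µM palbociclib in the treated ones. Dissected livers were pooled by genotype, ribosomal RNA was removed from their total RNA and the rest was sequenced. The 4 groups were control in DMSO (4 libraries), labelled mutant in DMSO (5), control in palbociclib (4, numbered 1, 2, 4 and 5) and labelled mutant in palbociclib (5). The control larvae were siblings that the design text calls wild type. Because 1 library is a pool of livers, the spread between libraries is not the spread between larvae, and the labels do not say whether the pools came from separate clutches. In such bulk samples fewer cells of a type and less RNA per cell cannot be told apart.

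Cells detect double-stranded RNA in the cytosol with helicases of the RIG-I family, which signal through the mitochondrial adaptor MAVS, and in endosomes with TLR3, which signals through TICAM1 after UNC93B1 has carried the receptor there. Both routes switch on interferon regulatory factors such as IRF7, which drive type I interferon genes. Interferon receptors then activate a complex of STAT proteins with IRF9 that induces antiviral genes, among them several of the sensors and factors themselves.

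Levels are deposited read counts divided by the TMM-scaled library total and given as CPM, the usual unit of edgeR, and they are compared between groups for 1 gene at a time, not between genes. Total counts in DMSO lay between 4141600 and 5199301 (control) and 2467926 and 3618445 (mutant). In palbociclib they lay between 3400255 and 4764175 (control) and 2863560 and 4056715 (mutant). UHRF1 itself was at 37.7 ± 7.47 CPM in controls and 46.3 ± 7.52 CPM in mutants in DMSO (SD, n = 4 and 5). Its log2 fold change was 0.29 (adjusted p = 0.223), so its level does not check the genotype labels. The share of counts on hepatocyte markers was 8.42% ± 0.854 for controls and 3.90% ± 0.613 for mutants in DMSO, and 5.88% ± 1.36 and 5.34% ± 0.724 in palbociclib (SD, n = 4 and 5 each). For muscle markers it was 3.71% ± 0.948, 5.72% ± 0.798, 5.47% ± 0.986 and 6.02% ± 0.449 in the same order. Control DMSO replicates 3 and 4 had the highest hepatocyte shares of the 18 libraries, 8.86% and 9.01%. They also had the lowest muscle shares, 3.15% and 2.95%, and the lowest TMM factors. Replicate 1 lay near them, at 8.65% and 3.71%, and replicate 2 lay further off, at 7.16% and 5.05%. Results that rest on replicates 3 and 4 are given with and without them. The fits without them keep only replicates 1 and 2 as controls in DMSO.

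In livers labelled mutant, IRF7, DHX58 and stat2 were higher than in controls in DMSO. IRF7 rose 11.2-fold, DHX58 13.8-fold and stat2 2.48-fold. mavs, ticam1 and UNC93B1 fell on the TMM scale, but with libraries scaled to the hepatocyte markers mavs stood at a log2 fold change of 0.82, ticam1 at 0.01 and UNC93B1 at -0.27. That scaling moved the median of all tested genes from 0.06 to 1.53, so a sign under it is set by the shift of every gene. Relative to the median the 3 genes stood at -0.72, -1.52 and -1.81 there, and at -0.80, -1.44 and -1.91 on the TMM scale. IFIH1 and irf9 did not pass the test on the TMM scale, and tlr3 had too few counts to be tested across the table. A gene was called at an adjusted p below 0.05 (edgeR quasi-likelihood test, Benjamini-Hochberg over 17048 tested genes).

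Of the 8 tested members 3 were called higher and 3 lower in mutant against control in DMSO, where 17.1% of all tested genes were called, 6.71% higher and 10.4% lower. The median log2 fold change of the 8 was 0.52, beside 0.06 over all tested genes. IFIH1, DHX58 and IRF7 passed the filter on low counts only through mutant libraries, which makes the count and the median descriptions without weight as support. Among the 5 members that would also pass on control libraries alone, 1 was higher, 3 lower and 1 not called. Passing on control libraries favours genes that are high in controls, so this count is also a description without weight as support. The groups did not overlap for 3 members with mutant libraries above and 1 with mutant libraries below, patterns seen in 5.83% and 8.24% of all tested genes. In palbociclib 0 of the 8 members were called by edgeR, where 1.05% of all tested genes were called, 0.634% higher and 0.416% lower. Unadjusted p-values were under 0.05 for 6 members there, a count whose share over all genes was not computed. DESeq2 called 2, IRF7 and stat2, beside 166 of all tested genes higher and 170 lower. The groups did not overlap, mutants above, for 2 members and 1.91% of all genes, and the 8 had a median log2 fold change of 1.15 beside 0.03 overall. Because of IFIH1, DHX58 and IRF7, these counts and the median are again descriptions without weight as support.

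**Figure D1:**
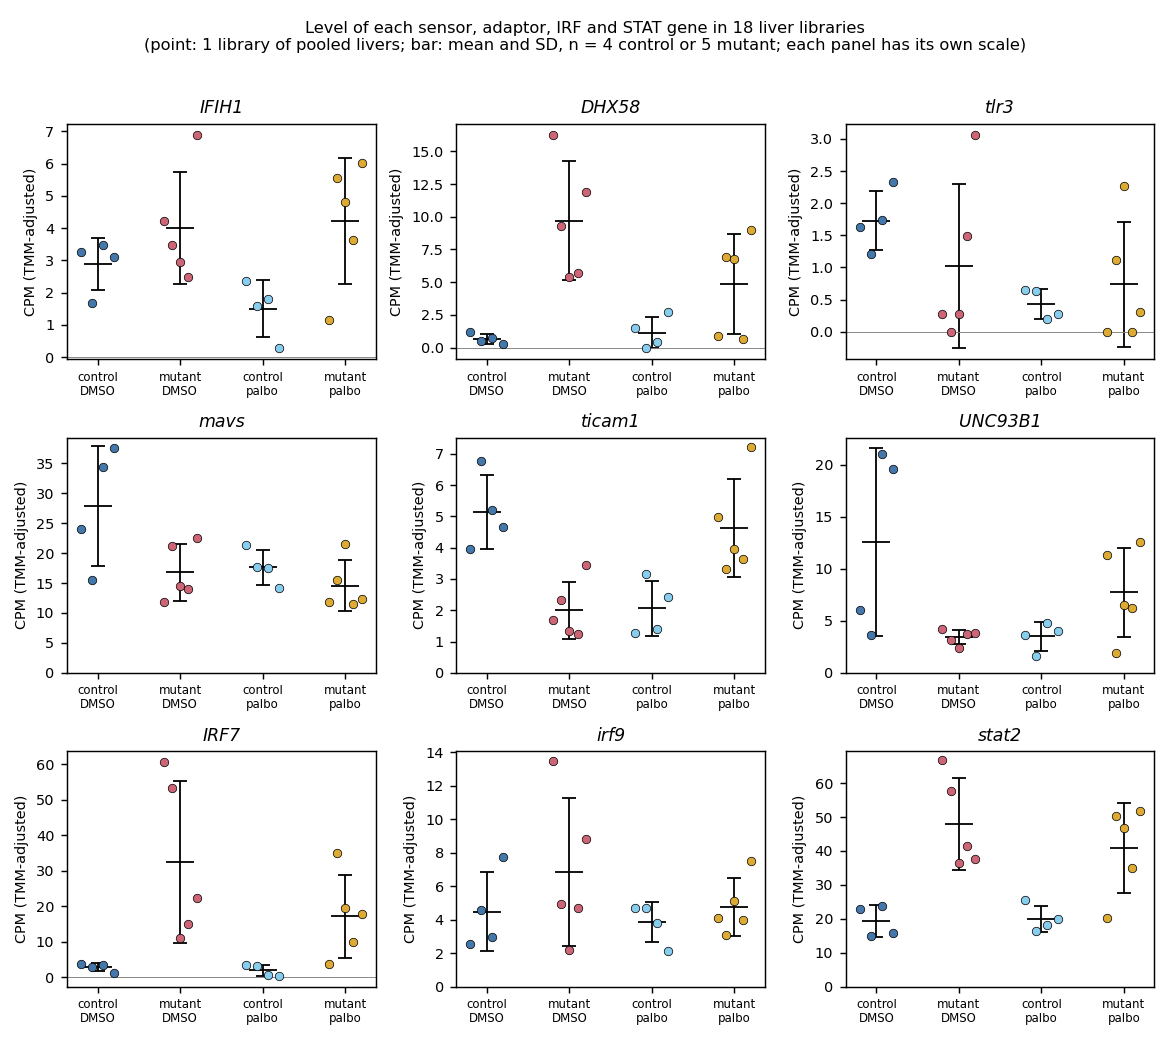
Level of each gene in CPM (vertical axis, linear, its own scale per gene) in the 4 groups, with a point for each library and a bar for the mean and SD (n = 4 control, n = 5 mutant). The mutant libraries lie above every control library of their treatment for IRF7, while UNC93B1 is high in 2 of the 4 control libraries in DMSO.

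Among the sensors, DHX58 changed most. DHX58 encodes LGP2, a helicase of the RIG-I family that lacks a signalling domain and modulates the other members. In DMSO its level was 1.17, 0.483, 0.743 and 0.259 CPM in control replicates 1 to 4 and 16.3, 9.27, 5.39, 5.68 and 11.9 CPM in mutant replicates 1 to 5. In palbociclib it was 1.5, 0, 0.401 and 2.69 CPM in control replicates 1, 2, 4 and 5 and 0.908, 6.94, 6.81, 0.659 and 9.02 CPM in mutant replicates 1 to 5. Every mutant library in DMSO lay above every control library, whereas in palbociclib mutant replicates 1 and 4 fell within the control range. The gene rose in DMSO by a log2 fold change of 3.78 (SE 0.768) with adjusted p = 0.00107, and did not pass the test in palbociclib, at 2.04 (SE 0.727, adjusted p = 0.271). Without control replicates 3 and 4 the DMSO value was 3.46 with an adjusted p of 0.0660. The order of the group means was mutant in DMSO (9.70 ± 4.55), mutant in palbociclib (4.87 ± 3.83), control in palbociclib (1.15 ± 1.21) and control in DMSO (0.663 ± 0.389 CPM, SD), and each group overlapped its neighbour in that order.

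IFIH1 encodes MDA5, which binds long double-stranded RNA. Its counts were low, from 1 to 14 per library in controls and from 5 to 20 in mutants. In DMSO control replicates 1 to 4 held 3.26, 1.69, 3.47 and 3.10 CPM and mutant replicates 1 to 5 held 4.21, 3.48, 2.96, 2.47 and 6.90 CPM. The groups overlapped and the log2 fold change was 0.44 (95% interval -0.55 to 1.44, adjusted p = 0.615). Under hepatocyte scaling the value was 1.94 (adjusted p = 0.000936), where the median gene was at 1.53. In palbociclib the controls held 2.35, 1.57, 1.80 and 0.269 CPM and the mutants 1.13, 5.55, 4.82, 3.63 and 6.01 CPM. There 4 of the 5 mutant libraries lay above all 4 controls and mutant replicate 1 lay among them, and the log2 fold change of 1.43 (95% interval 0.37 to 2.49) had an adjusted p of 0.258.

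tlr3, the endosomal receptor for double-stranded RNA, was near the detection limit, with 28, 16, 7 and 13 counts summed over control and mutant in DMSO and control and mutant in palbociclib. Control libraries in DMSO held 1.63, 1.21, 1.73 and 2.33 CPM, above the 0.642, 0.629, 0.201 and 0.269 CPM of controls in palbociclib. These 2 groups did not overlap, and an exact two-sided permutation test gave p = 0.0286, the smallest that 4 against 4 libraries allow, or 0.114 after Benjamini-Hochberg adjustment over the 4 comparisons tested. Mutant libraries spread from 0 to 3.07 CPM in DMSO and from 0 to 2.27 CPM in palbociclib, and exact permutation p-values of the other 3 comparisons lay between 0.317 and 0.738. Its cell-surface and endosomal relatives were sparse too, since 3 of 14 Toll-like receptor genes passed the filter.

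The adaptor mavs, which relays the signal of the cytosolic RNA sensors from the mitochondrial membrane, was present in every library. Its level was 24.0, 15.5, 34.4 and 37.5 CPM in control and 11.8, 21.1, 14.5, 14.1 and 22.6 CPM in mutant libraries in DMSO, in replicate order. In palbociclib the controls held 21.4, 17.6, 17.4 and 14.2 CPM and the mutants 11.8, 15.5, 21.6, 11.5 and 12.3 CPM. Control replicates 3 and 4 in DMSO were the highest of all 18 libraries and control replicate 2 lay within the mutant range. mavs fell in mutants in DMSO by 0.74 on the log2 scale (SE 0.232, adjusted p = 0.0216), but stood at 0.82 (adjusted p = 0.0111) under hepatocyte scaling, where the median gene was at 1.53, and was not called without control replicates 3 and 4 (-0.27, adjusted p = 0.708). Its call in DMSO was also lost without control replicate 3 or 4 alone, or mutant replicate 1, 3 or 4, with values from -0.68 to -0.56 and adjusted p from 0.0571 to 0.145. The change in palbociclib was -0.28 (95% interval -0.77 to 0.20, adjusted p = 0.823).

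ticam1 encodes TRIF, the adaptor of TLR3 in mammals, and had 5 to 28 counts per library. In DMSO it stood at 3.96, 6.77, 5.20 and 4.65 CPM in control and 1.68, 2.32, 1.35, 1.23 and 3.45 CPM in mutant libraries, so every mutant was below every control. In palbociclib the order was the opposite, with 1.28, 3.14, 1.40 and 2.42 CPM in control and 4.99, 3.33, 3.97, 3.63 and 7.21 CPM in mutant libraries, and again no overlap. ticam1 reached the minimum of the low-count filter in 4 control and 1 mutant libraries in DMSO, and in 0 and 5 in palbociclib. It passed mainly through the 2 groups where it was high, so its calls are descriptions without weight as support. Mutants fell by 1.39 on the log2 scale in DMSO (SE 0.450, adjusted p = 0.0260). Under hepatocyte scaling the value was 0.01 (adjusted p = 0.983), where the median gene was at 1.53. The call was lost without control replicate 2 or 3 or mutant replicate 3 or 4, with values from -1.38 to -1.23 and adjusted p from 0.0562 to 0.0793. Without control replicates 3 and 4 the value was -1.47 with an adjusted p of 0.103. In palbociclib the log2 fold change was 1.19 (SE 0.458), which did not pass the test (adjusted p = 0.298).

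UNC93B1 escorts nucleic-acid-sensing Toll-like receptors from the endoplasmic reticulum to endosomes in mammals. In DMSO it was at 6.06, 3.63, 21.1 and 19.7 CPM in control and 4.21, 3.19, 2.42, 3.70 and 3.83 CPM in mutant libraries. Controls in palbociclib held 3.64, 1.57, 4.81 and 4.03 CPM and mutants 11.3, 1.94, 6.52, 6.26 and 12.6 CPM. The control mean in DMSO, 12.6 ± 9.03 CPM (SD, n = 4), was set by replicates 3 and 4, and replicate 2 lay within the mutant range. UNC93B1 fell by 1.85 on the log2 scale in mutants in DMSO (SE 0.485, adjusted p = 0.00867). The value was -0.51 (adjusted p = 0.706) without those 2 libraries. Under hepatocyte scaling it was -0.27 (adjusted p = 0.573), where the median gene was at 1.53. In palbociclib the change was 1.11 (95% interval 0.07 to 2.14, adjusted p = 0.468).

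The falls of mavs, ticam1 and UNC93B1 in mutants in DMSO, seen on the TMM scale and, under hepatocyte scaling, only relative to the median gene, stood beside the lower hepatocyte share and the higher muscle share of the same libraries. With the muscle share as a covariate none of these 3 genes was called (mavs -0.22, ticam1 -1.34, UNC93B1 -1.06, adjusted p = 0.842, 0.256 and 0.559). The muscle share itself differed between these groups (means 3.71% and 5.72%), so this fit parts it poorly from genotype. Calls over all genes went from 2916 to 667 higher and 595 lower in it. The part of tissue composition in these 3 falls was not tested.

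IRF7 is the interferon regulatory factor that amplifies type I interferon transcription and is itself induced by interferon in mammals. In DMSO its level was 3.73, 2.90, 3.47 and 1.29 CPM in control and 60.6, 53.3, 11, 15.1 and 22.2 CPM in mutant libraries. Controls in palbociclib held 3.42, 3.14, 0.802 and 0.538 CPM and mutants 3.86, 35, 19.6, 9.89 and 17.7 CPM. All 10 mutant libraries lay above the 8 control libraries, though mutant replicate 1 in palbociclib only just. IRF7 rose in DMSO by a log2 fold change of 3.49 (SE 0.735) with adjusted p = 0.00358, and stood at 3.12 in palbociclib (SE 0.795, adjusted p = 0.0908). Without mutant replicate 1 the palbociclib value was 3.36 with an adjusted p of 0.0378, and without control replicates 3 and 4 the DMSO value was 3.25 with an adjusted p of 0.0784.

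irf9, the DNA-binding subunit of the STAT complex that interferon receptors activate, did not pass the test in any comparison on the TMM scale. Under hepatocyte scaling it was at 1.98 in DMSO (adjusted p = 0.000129), where the median gene was at 1.53. The level of irf9 was 2.56, 4.59, 2.97 and 7.76 CPM in control and 13.5, 4.92, 2.16, 4.69 and 8.82 CPM in mutant libraries in DMSO. The mutant libraries spanned more than the whole control range. On the TMM scale the log2 fold change was 0.60 (95% interval -0.25 to 1.45, adjusted p = 0.381) in DMSO. It was 0.29 (95% interval -0.58 to 1.17, adjusted p = 0.934) in palbociclib, where the means were 3.85 ± 1.21 CPM in control and 4.74 ± 1.71 CPM in mutant libraries (SD, n = 4 and 5).

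stat2 encodes a signal transducer that serves type I and type III interferon receptors. Its level was 22.8, 15.0, 23.8 and 15.8 CPM in control and 66.8, 57.6, 36.4, 41.5 and 37.6 CPM in mutant libraries in DMSO. In palbociclib controls held 25.5, 16.3, 18 and 19.9 CPM and mutants 20.2, 50.2, 46.8, 34.9 and 51.7 CPM. The mutants lay above all controls in DMSO, and 4 of the 5 did so in palbociclib, with mutant replicate 1 among the controls. stat2 rose in DMSO by 1.31 on the log2 scale (SE 0.253, adjusted p = 0.00068). In palbociclib the value was 1.02 (SE 0.253, adjusted p = 0.0531), and 1.17 with an adjusted p of 0.000364 without mutant replicate 1.

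Ordered by group mean, IRF7 stood highest in mutants in DMSO (32.4 ± 22.9 CPM), then mutants in palbociclib (17.2 ± 11.8), controls in DMSO (2.85 ± 1.09) and controls in palbociclib (1.98 ± 1.52, SD), and only the step between mutants and controls was free of overlap. For stat2 the means were 48.0 ± 13.5, 40.8 ± 13.2, 19.9 ± 3.96 and 19.3 ± 4.6 CPM in mutants in DMSO, mutants in palbociclib, controls in palbociclib and controls in DMSO, and each group overlapped the next. The adaptor genes were ordered differently, ticam1 and UNC93B1 being highest in controls in DMSO (5.15 ± 1.19 and 12.6 ± 9.03 CPM), then in mutants in palbociclib (4.63 ± 1.58 and 7.74 ± 4.31), controls in palbociclib (2.06 ± 0.883 and 3.51 ± 1.38) and mutants in DMSO (2.01 ± 0.910 and 3.47 ± 0.690), on the TMM scale. Neighbours in that order overlapped for both genes, except mutants and controls in palbociclib for ticam1.

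**Figure D2:**
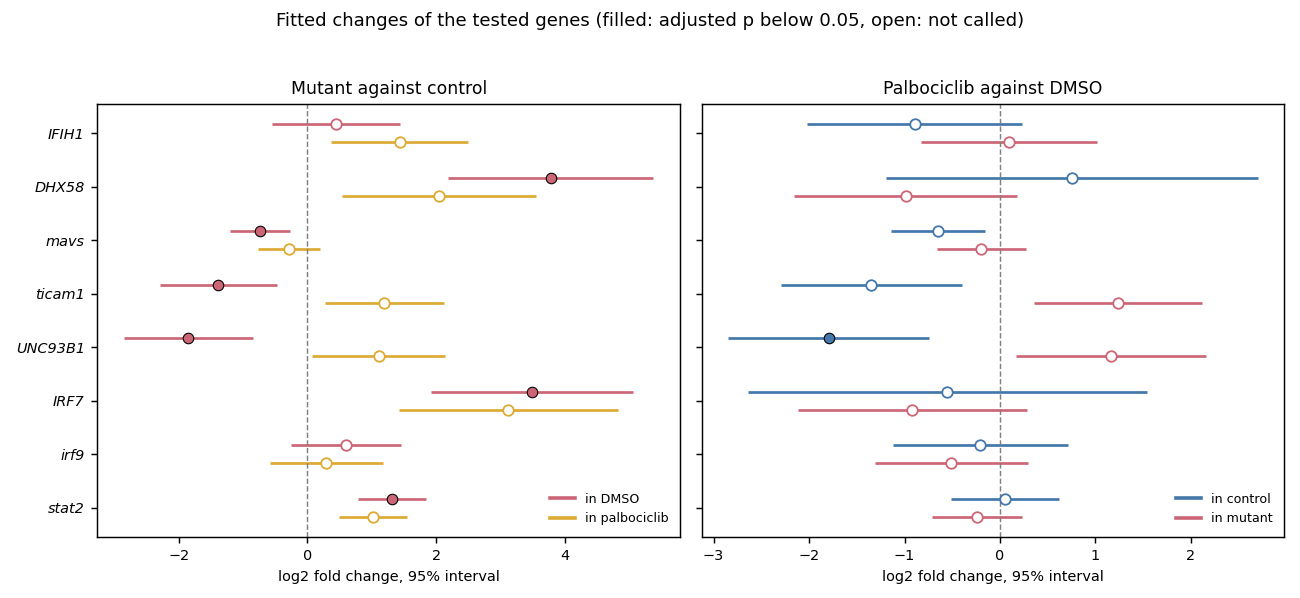
Log2 fold change with its 95% interval for the 8 tested genes, mutant against control in each treatment (left) and palbociclib against DMSO in each genotype (right), with filled points for adjusted p below 0.05. ticam1 and UNC93B1 lie on opposite sides of 0 in the 2 treatments, and no point is filled for palbociclib on the left. In DMSO ticam1 was at -1.39 and UNC93B1 at -1.85. With hepatocyte scaling they were at 0.01 and -0.27, where the median gene was at 1.53.

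Palbociclib against DMSO was compared within each genotype, and these comparisons share the same DMSO and treated libraries with those above. In controls 1 of the 8 members was called lower, where 5.73% of all tested genes were called, 1.39% higher and 4.33% lower. UNC93B1 fell by 1.80 on the log2 scale in controls (SE 0.508, adjusted p = 0.0378), a value that was -0.43 (adjusted p = 0.890) without control DMSO replicates 3 and 4 and that lost its call in 12 of the 18 fits leaving out 1 library. Control libraries in palbociclib were all below those in DMSO for 1 tested member, a pattern of 5.55% of all genes (3.87% were all above). This was ticam1 (-1.35, SE 0.471, adjusted p = 0.0791), and mavs was at -0.65 (SE 0.242, adjusted p = 0.104). The median of the 8 was -0.60, beside -0.02 over all genes.

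In mutants 0 of the 8 members were called by edgeR, where 0.546% of all tested genes were called, 0.0411% higher and 0.504% lower, and DESeq2 called 0 as well. The treatments overlapped for each of the 8, where 0.751% of all genes had palbociclib libraries all above and 1.55% all below. Unadjusted p-values were under 0.05 for 2 members, ticam1 (1.23, SE 0.437, adjusted p = 0.303) and UNC93B1 (1.16, SE 0.480, adjusted p = 0.468). The share over all genes was not computed. The intervals were wide, from -2.12 to 0.28 for IRF7 around -0.92 and from -2.16 to 0.18 for DHX58 around -0.99. For stat2 the interval was -0.71 to 0.23 around -0.24. A missed threshold does not show that palbociclib left these levels as they were.

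The interaction, the log2 difference between the mutant effect in palbociclib and that in DMSO, was called higher for 2 of the 8 members, where 1.99% of all tested genes were called, 1.74% higher and 0.252% lower. Both were endosomal route genes, UNC93B1 at 2.96 (SE 0.699, adjusted p = 0.0262) and ticam1 at 2.58 (SE 0.642, adjusted p = 0.0217). Without control DMSO replicates 3 and 4 neither was called, with UNC93B1 at 1.61 (adjusted p = 0.435) and ticam1 at 2.65 (adjusted p = 0.113). With the muscle covariate neither was called (UNC93B1 2.32, ticam1 2.55, adjusted p = 0.210 and 0.0575). Under hepatocyte scaling UNC93B1 stayed called and ticam1 was not called (1.37, adjusted p = 0.0930), where the median gene was at -1.30. Leaving out 1 library ended the UNC93B1 call in 8 and the ticam1 call in 3 of the 18 fits. ticam1 passed the low-count filter mainly through the 2 groups where it was high, so its call is a description without weight as support. DHX58 was at -1.74 (adjusted p = 0.540), IRF7 at -0.37 (adjusted p = 0.933) and stat2 at -0.29 (adjusted p = 0.799). So on the TMM scale the smaller mutant effects of DHX58, IRF7 and stat2 in palbociclib were not shown to differ from those in DMSO. Under hepatocyte scaling the interaction was called lower for DHX58 (-3.09, adjusted p = 0.00609), stat2 (-1.59, adjusted p = 0.00185) and irf9 (-1.44, adjusted p = 0.0430), where the median of all genes was itself at -1.30. Relative to that median the 3 stood at -1.78, -0.29 and -0.13.

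Levels of the induced genes also tended to move together among libraries of the same group, though not in each group. DHX58, IRF7 and stat2 were grouped for this after their values were seen. With group means removed, Pearson's r of log2 CPM over the 18 libraries was between 0.486 and 0.790 for their 3 pairs, and Spearman's rho between 0.492 and 0.740. Without the 2 libraries farthest from the median of 1 gene of the pair, r was between 0.335 and 0.716. That gene was DHX58, or IRF7 for its pair with stat2. For the 3 pairs among mavs, ticam1 and UNC93B1 r was between -0.031 and 0.288. High values were not confined to the first 3 genes. IFIH1 was at 0.630 with IRF7, 0.573 with stat2 and 0.538 with mavs (rho 0.589 for mavs), and at 0.331 with DHX58. Among DHX58, IFIH1, IRF7 and stat2, mutant replicate 1 was the highest of its group for 3 genes in DMSO, and in palbociclib mutant replicate 1 was the lowest for 3 and replicate 5 the highest for 3. Control replicate 5 in palbociclib was the highest of its group for DHX58 (2.69 CPM) but the lowest for IRF7 (0.538 CPM). These correlations share depth, scaling and tissue make-up between genes and are descriptions only.

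**Figure D3:**
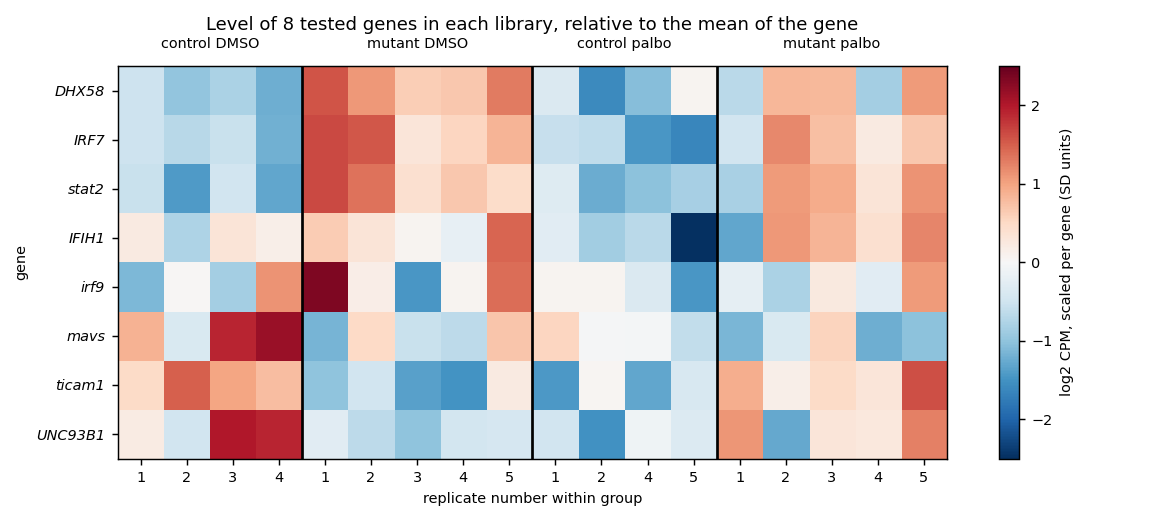
Level of the 8 tested genes (rows) in each library (columns, by group and replicate number), as log2 CPM centred on the mean of the gene and divided by its SD. The top 3 rows are red in all 5 mutant DMSO columns and in most mutant palbociclib columns, replicate 1 and, for DHX58, replicate 4 being pale or blue, and UNC93B1 and mavs are darkest in control DMSO replicates 3 and 4.

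Leukocytes can carry much of this pathway, so their markers were read in the same libraries. The macrophage and myeloid list (15 of 18 symbols matched) took 0.00430% of counts in controls and 0.0165% in mutants in DMSO (ranges 0.00337% to 0.00592% and 0.0133% to 0.0213%), and 0.00598% and 0.0137% in palbociclib (ranges 0.00552% to 0.00673% and 0.00821% to 0.0177%). The genes cd74a and cd74b, which encode the invariant chain of class II antigen presentation, held 989 and 445 of the 2699 counts of this list in mutants in DMSO, against 1 and 4 of 825 in controls. Without these genes the shares were 0.00427%, 0.00782%, 0.00587% and 0.00744% in controls and mutants in DMSO and in palbociclib, and mutants lay above controls in both treatments (ranges 0.00334% to 0.00592%, 0.00725% to 0.00923%, 0.00544% to 0.00660% and 0.00673% to 0.00840%). Of the 9 tested genes of the list 4 rose in mutants in DMSO, cd74a, cd74b, ctss2.1 and grna, and 1 fell, spi1a. Over all tested genes 6.71% rose and 10.4% fell, and cd74a and cd74b passed the filter only through mutant libraries. The receptor csf1ra, which marks macrophages, was at 0.17 (adjusted p = 0.768) and marco at 0.49 (adjusted p = 0.520). Mutant palbociclib replicate 1, low for the induced genes, also had the lowest myeloid share of its group, 0.00821%, but not without cd74a and cd74b (0.00710%). Pan-leukocyte markers took 0.00618%, 0.0104%, 0.00861% and 0.0107% of counts in the 4 groups, with 1 of 9 tested genes higher in DMSO. Neutrophil markers (3 of 6 symbols matched) took 0.00304%, 0.00538%, 0.00349% and 0.00407% in the same order. Mutants lay above controls in DMSO (ranges 0.00259% to 0.00360% and 0.00462% to 0.00616%), while the groups overlapped in palbociclib. MMP9 had 70 and 282 counts in controls and mutants in DMSO and 73 in each palbociclib group. In DMSO lyz had 289 and 348 counts and nccrp1 231 and 237. Lymphoid markers, 13 genes, took 0.000396%, 0.000598%, 0.000561% and 0.000714%, and RAG1, the 1 gene among them that was tested, was not called in DMSO. Of the 13 genes cd8a and nkl.3 had no count in any library, while RAG1 had 38, 48, 46 and 54 counts and IKZF1 21, 21, 23 and 42 in the 4 groups. The part of leukocyte number in the changes of IRF7, DHX58 and stat2 was not tested.

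Other genes of the pathway, from lists drawn up with earlier results of these data known, were read in the same fit. Under library-size scaling more genes were called higher in each list but the interferon regulatory factors, and under hepatocyte scaling in every list, where the median of all genes moved by 0.36 and 1.47. Of all 17048 tested genes 4643 were higher under library-size scaling and 14955 under hepatocyte scaling, against 1144 on the TMM scale. The cytosolic RNA sensor list had 11 tested genes, of which 2 were higher and 1 lower in mutants in DMSO (median 0.09). Over all tested genes 6.71% were higher and 10.4% lower (median 0.06). The 2 that rose, DHX58 and pkz, had 11 and 5 counts summed over controls in DMSO. Both passed the filter only through mutant libraries, so the count is a description without weight as support. pkz, a fish kinase with domains that bind Z-form nucleic acid, rose with DHX58 (log2 fold change 3.36, adjusted p = 0.00377), and NLRX1, a mitochondrial regulator of MAVS signalling in mammals, fell by 0.84 (adjusted p = 0.0369), but was at -0.45 (0.238) under library-size and 0.71 (0.0770) under hepatocyte scaling, where it was at -0.83 relative to the median gene. Without control DMSO replicates 3 and 4 neither was called, with pkz at 3.14 (adjusted p = 0.0795) and NLRX1 at -0.27 (adjusted p = 0.811). Among 6 tested DNA sensor genes HMGB2, a nuclear DNA-binding protein, was called at 0.27 (adjusted p = 0.0444, and 0.342 without those 2 libraries). The HMGB2 call was also lost without the filter (adjusted p = 0.116) and with only the groups compared (0.0921). The same held for the muscle covariate (0.543) and the replicate block (0.0918). Of 3 tested Toll-like receptor genes none was called, and tlr22, a fish receptor for double-stranded RNA, was at 1.34 (adjusted p = 0.145; 1.66 with 0.0375 under library-size and 2.71 with 0.000305 under hepatocyte scaling) and tlr5a at -0.44 (adjusted p = 0.676).

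The adaptor and kinase list held calls in both directions on the TMM scale. Of its 21 tested genes 5 were higher and 3 lower in mutants in DMSO, beside 6.71% of all genes higher and 10.4% lower. Among the 5, IRAK3 and tank had 1 and 19 counts summed over controls in DMSO. Both passed the filter only through mutant libraries, so the count is a description without weight as support. The 3 were mavs, ticam1 and UNC93B1 (0.82, 0.01 and -0.27 under hepatocyte scaling, where the median gene was at 1.53). The list had 13 higher and 1 lower under library-size scaling, beside 4643 and 1029 of all 17048 tested genes. Under hepatocyte scaling it had 19 and 0, beside 14955 and 145. With the muscle covariate it had 5 and 0, beside 667 and 595. Without control DMSO replicates 3 and 4 the list had 5 and 0, beside 473 and 957 of all genes tested there. In palbociclib 0 were called by edgeR on the TMM scale, but trim25 was at 1.34 and was called under each of 8 alternatives, at 1.33 to 1.60. MYD88, the adaptor of most Toll-like receptors, rose from 4.84 to 14.0 CPM (1.53, adjusted p = 0.000221), the ligase traf3 from 4.91 to 17.1 CPM (1.80, adjusted p = 5.03e-05) and trim25, a ligase that activates RIG-I in mammals, from 6.17 to 20.4 CPM (1.72, adjusted p = 0.000593). tank, a scaffold of the TBK1 kinases, was at 2.43 (adjusted p = 0.00154), and IRAK3, an inhibitor of MYD88 signalling, had 70 counts in mutants against 1 in controls (65.8 times, 95% interval 11.4 to 2634, counting error only). In mutants MYD88 and traf3 fell in palbociclib against DMSO (-1.17 and -1.22, adjusted p = 0.035 for both), and IRAK3 was called in the interaction at -6.14 (adjusted p = 0.0121, and 0.151 without control DMSO replicates 3 and 4).

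Of 8 tested interferon regulatory factors 3 rose in mutants in DMSO and none fell (median 0.74). Over all tested genes 6.71% rose and 10.4% fell, with a median of 0.06. IRF7 and irf10, with 47 and 12 counts summed over controls in DMSO, passed the filter only through mutant libraries. irf1b, a factor induced by interferon gamma in mammals as IRF1, went from 32.4 to 145 CPM (2.17, adjusted p = 0.000171), and irf10, which has no counterpart in humans, was at 2.94 (adjusted p = 0.000907). irf10 was also called in palbociclib, at 3.80 (adjusted p = 0.00201). Of the 6 STAT genes read here stat2 was the 1 that rose on the TMM scale in the fit of all groups. Under library-size scaling STAT3 (0.54, adjusted p = 0.0145), STAT4 (1.86, adjusted p = 0.0233) and stat6 (0.89, adjusted p = 0.00268) were called higher too, and under hepatocyte scaling 5 were. Of all 17048 tested genes 4643 and 14955 were higher under these 2 scalings. With only the groups compared or with the muscle covariate 2 were higher, STAT4 joining in the first and stat6 in the second. Over all genes tested there 908 and 667 were higher. The gene stat5a, a transducer of growth hormone and cytokine signals, fell from 74.4 to 20.6 CPM in mutants in DMSO (-1.85, adjusted p = 2.29e-10). Under hepatocyte scaling it was at -0.38 (adjusted p = 0.129), where the median gene was at 1.53. stat5a was also lower in palbociclib in controls on the TMM scale (-1.08, adjusted p = 0.000281). Its value there under hepatocyte scaling, which moved the median of all genes by 0.83, is not given here. Calls over all genes there fell to 4 higher and 44 lower without control DMSO replicates 3 and 4. The gene was called in the interaction too (1.38, adjusted p = 0.00147, and 0.13 with 0.718 under hepatocyte scaling, or 1.44 relative to the median gene).

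Interferon genes themselves were barely detected. ifnphi1, a type I interferon of fish, had 0 counts in controls under both treatments, 8 in mutants in DMSO and 11 in mutants in palbociclib. Against a floor of 3 counts over the control group the mutant levels were 2.5-fold and 3.39-fold higher, values that leave out counting error. Mutant libraries differed widely, at 0.456 ± 0.670 CPM in DMSO and 0.615 ± 0.932 CPM in palbociclib (SD, n = 5 each). Of 11 tested genes for interferon receptors and JAK kinases TYK2 rose in mutants in DMSO (1.25, adjusted p = 0.00164) and JAK2 fell by 0.58 (adjusted p = 0.0162). Over all tested genes 6.71% rose and 10.4% fell. JAK2 was at -0.20 (0.383) under library-size scaling and at 0.94 (0.00131) under hepatocyte scaling, or -0.60 relative to the median gene. Without control DMSO replicates 3 and 4 JAK2 was not called (-0.34, adjusted p = 0.455), nor with the muscle covariate (-0.22, adjusted p = 0.747). Among 14 tested negative regulators usp18, which blocks the type I receptor, rose from 3 to 75 counts (23.5 times, 95% interval 7.73 to 116, counting error only). It passed the filter only through mutant libraries. TNFAIP3 rose by 1.94 (adjusted p = 0.000289) and CISH, a target and inhibitor of STAT5, fell by 1.76 (adjusted p = 0.00134). Under hepatocyte scaling CISH was at -0.31 (adjusted p = 0.408), where the median gene was at 1.53. With the muscle covariate CISH was at -1.23 (adjusted p = 0.158).

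Interferon target genes, which encode antiviral and antigen-presentation proteins, were tested in the same way. Of 14 tested interferon target genes 12 were higher and none lower in mutants in DMSO, with a median log2 fold change of 3.76. IFIH1 and isg20 were the others. Over all tested genes 6.71% were higher and 10.4% lower, with a median of 0.06. Most of the 14 passed the filter only through mutant libraries. Among them were isg15, TAP1, parp9 and ifi44a1, with 19, 30, 2 and 4 counts over controls in DMSO. The count and median are therefore descriptions without weight as support. Without the filter 13 of 21 genes were called higher, with a median of 2.76. In that fit 1142 of all genes with any count were higher, with a median of 0.04. In palbociclib 8 of the 14 were higher, beside 0.634% of all tested genes. The median of the 14 was 3.32, or 3.25 with ifi44a1 set against a floor of 3 counts because controls had no count. Without the filter 9 of 21 were called higher there, with a median of 3.18, beside 140 of all genes with any count. isg15, a ubiquitin-like modifier, rose from 1.16 to 325 CPM in DMSO (8.09, adjusted p = 4.11e-07) and from 0.696 to 161 CPM in palbociclib (7.84, adjusted p = 2.78e-05). TAP1, the peptide transporter of class I presentation, was at 3.86 (adjusted p = 1.79e-06) and 3.35 (adjusted p = 0.000299), and parp9, of the ADP-ribosyltransferase family, at 5.60 (adjusted p = 6.63e-07) and 3.29 (adjusted p = 0.00503).

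**Figure D4:**
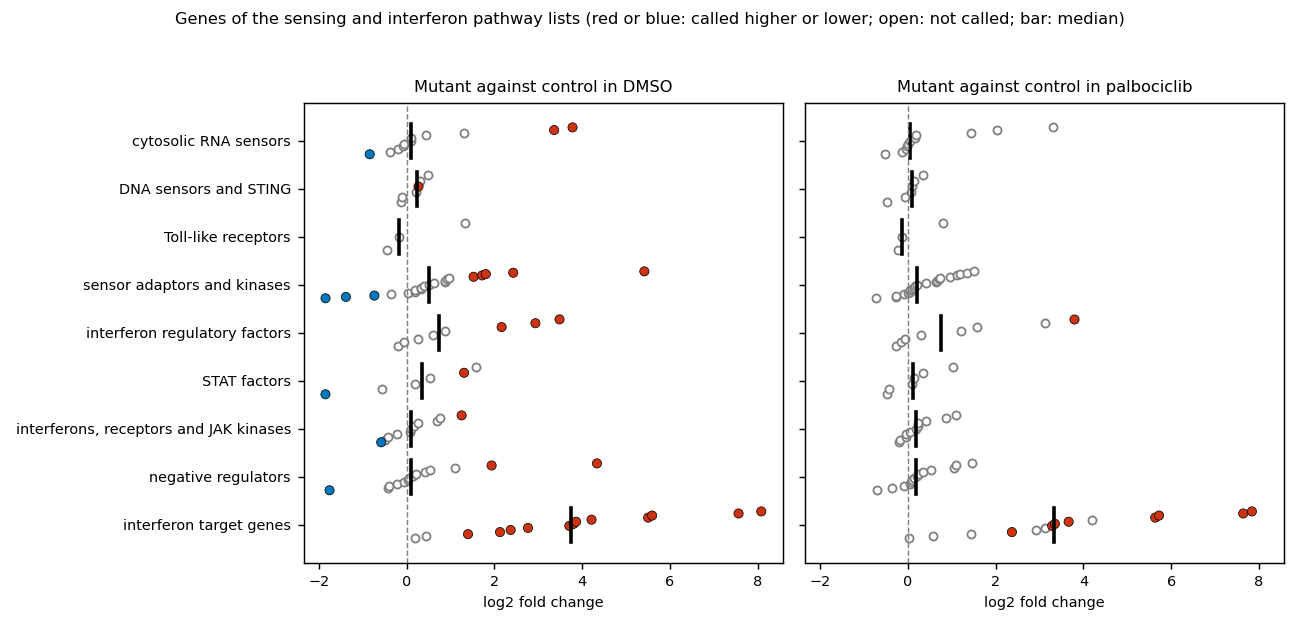
Log2 fold change of each tested gene in 9 pathway lists, mutant against control in DMSO (left) and in palbociclib (right), red or blue for called higher or lower and open for not called, with a bar at the median of the list. The interferon target genes, most of which passed the filter only through mutant libraries, sit at medians of 3.76 and 3.32. The adaptor list has calls on both sides of 0 in DMSO and 0 calls in palbociclib, where trim25 was called under 8 alternatives. Under hepatocyte scaling mavs was at 0.82 and ticam1 at 0.01 in DMSO, both below the median gene at 1.53.

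Genes whose log2 CPM over the 18 libraries was most like that of a member differed by member. By Pearson's r, IRF7 was most like BTG1 (0.962), casp8 (0.961) and KARS1 (0.955), and stat2 like ZNFX1 (0.955), FMNL3 (0.95) and TAP1 (0.940). DHX58 shared ZNFX1 with stat2 (0.903), after si:dkey-85k7.12 (0.915), and its next was CD63 (0.900).

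The remaining members had other partners. For mavs the highest correlations were with CHD9 (0.909), SUSD6 (0.889) and SNX12 (0.874), and for UNC93B1 with MRPS7 (0.844), si:ch73-281k2.5 (0.811) and STS (0.810). ticam1 was most like map3k4 (0.799), DCAF12 (0.745) and BCKDHB (0.740), IFIH1 like stk17b (0.836), ANAPC5 (0.821) and DNAAF10 (0.818), and irf9 like SYNRG (0.785), TNRC18 (0.782) and TMEM260 (0.752). These values hold the differences between groups as well as the spread within them. With group means removed the value for IRF7 and BTG1 was 0.878, and that for ticam1 and map3k4 was 0.338.

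**Figure D5:**
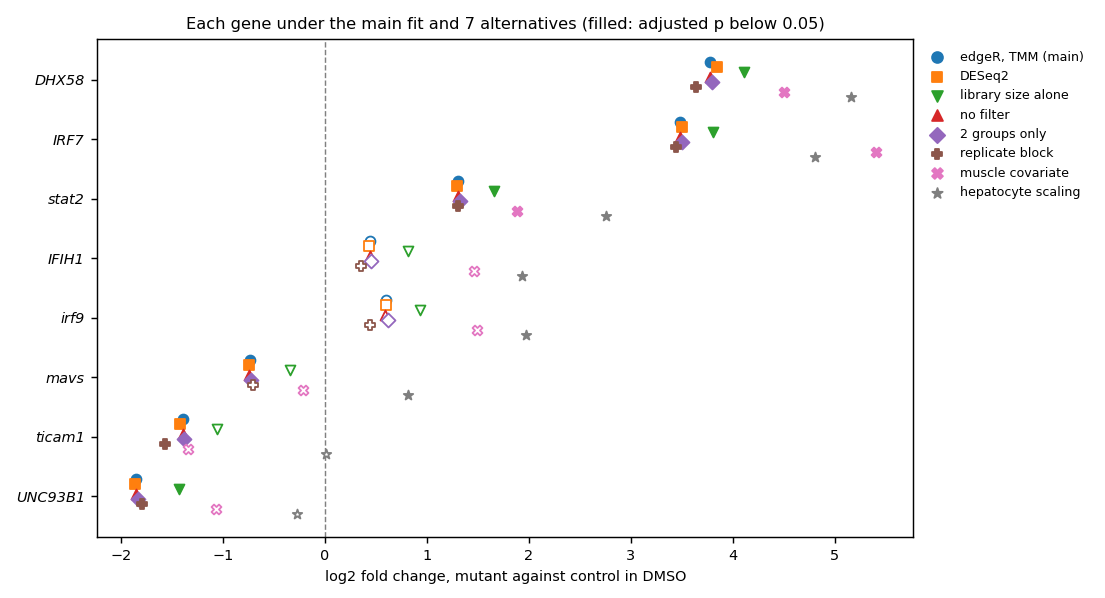
Log2 fold change of the 8 tested genes, mutant against control in DMSO, under the fit used here and 7 alternatives, filled where adjusted p is below 0.05. DHX58, IRF7 and stat2 are filled under each of the 8 settings drawn. Under hepatocyte scaling mavs lies at 0.82 and ticam1 at 0.01, where the median gene was at 1.53. Leaving out control DMSO replicates 3 and 4 is not drawn. It kept only replicates 1 and 2 as controls in DMSO and ended the DHX58 and IRF7 calls (adjusted p = 0.0660 and 0.0784). No fit leaving out 1 library ended either call (adjusted p at most 0.00871 and 0.0174).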

How the data were processed

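The 18 libraries came from pooled larval zebrafish livers, 4 or 5 for each of 4 groups. The authors deposited whole-number read counts per gene for each library. Per the submitters' processing notes, FastQC 0.11.5 and Trimmomatic 0.36 were used. The aligner, counter, strand setting, genome build and annotation were not given in the sources used here. Reads of overlapping or antisense genes therefore cannot be told apart.

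Counts were summarised with edgeR 4.0.16 in R 4.3.3. filterByExpr kept 17048 genes (99.56% of counts) and removed 15057, tlr3 among them; its minimum was 2.79 CPM in at least 4 libraries. TMM factors ranged from 0.763 to 1.15, and the common dispersion corresponded to a coefficient of variation of 0.218. All 18 libraries entered a quasi-likelihood fit (robust) with a mean per group, so groups share 1 estimate of the spread. Calls used a false discovery rate of 0.05 with no minimum fold. Intervals cover 95%. No pair of libraries was identical (0 pairs). p-values measure the spread between pooled-liver samples. tlr3 was compared by exact permutation of CPM. Scripts were tested on simulated data.

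The members and lists were chosen with earlier results of these data known. Results for 1 further member are not reported here. Named genes are all members, uhrf1, list genes called in mutant against control in DMSO or in the interaction (at most 6 a list by smallest adjusted p, or the first 2 where none was called), and for each tested member the 3 genes of most like log2 CPM (prior count 2, at least 5 CPM in a group). Other genes named (csf1ra, marco and other markers, ifnphi1, isg20 and ifi44a1) were chosen after their values were seen. Alternatives were DESeq2 1.42.0, library-size and hepatocyte-marker scaling, no filter, only the groups compared, the muscle share as a covariate, a replicate block and leaving out each library. Leaving out control DMSO replicates 3 and 4 together, and reading the myeloid markers without cd74a and cd74b, was chosen after seeing the data. No gene lengths or sequences were used.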

Additional observations from a re-analysis of the deposited data

Results flagged for a closer look

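The mutant effect on ticam1 and on UNC93B1 differed between treatments by the test of the interaction. The differences on the log2 scale were 2.58 for ticam1 and 2.96 for UNC93B1. For ticam1 the groups did not overlap in either treatment, with mutants below controls in DMSO and above them in palbociclib. It passed the low-count filter mainly through the 2 groups where it was high, so the ticam1 call is a description without weight as support. Under hepatocyte scaling the DMSO value of ticam1 was 0.01, where the median gene was at 1.53. For UNC93B1 the groups overlapped in both treatments. Without control DMSO replicates 3 and 4 neither interaction was called, with UNC93B1 at 1.61 (adjusted p = 0.435) and ticam1 at 2.65 (adjusted p = 0.113). With the muscle covariate neither was called (UNC93B1 2.32, adjusted p = 0.210; ticam1 2.55, adjusted p = 0.0575). Under hepatocyte scaling ticam1 was not called (1.37, adjusted p = 0.0930) and UNC93B1 was (1.52, adjusted p = 0.0458). The median of all genes there was -1.30, and the part of these libraries' tissue composition in the difference was not tested. No single library was flagged as apart from the rest of its group in any of 36 gene and group combinations examined (0). A search for 1 library at a time cannot flag 2 that lie together, as control DMSO replicates 3 and 4 did for UNC93B1 (21.1 and 19.7 CPM).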

How the results depend on the processing

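Of the 6 members called in mutant against control in DMSO, DHX58, IRF7 and stat2 stayed called under each alternative but 1: without control DMSO replicates 3 and 4 only 1 member was called, stat2 (1.31, adjusted p = 0.0281). Scaling by the hepatocyte list put mavs at 0.82 and ticam1 at 0.011, both below the median gene, and moved the median of all genes by 1.47 (0.17, 0.83, -0.47 and -1.30 in the other 4 comparisons), against 0.36, 0.26 and -0.26 for library-size scaling in DMSO, controls and the interaction. With the muscle covariate 3 members were called, all higher, and leaving out 1 library left 4 to 6 (4 without control replicate 3, mutant replicate 3 or mutant replicate 4). In palbociclib 2 members, IRF7 and stat2, were called in place of 0 with DESeq2, library-size scaling, hepatocyte scaling and the muscle covariate, and 0 to 2 with 1 library left out. For palbociclib in controls hepatocyte scaling called 1 member, higher, while 0 were called with only the groups compared, with the muscle covariate and without replicates 3 and 4, and 0 to 2 with 1 library left out. In mutants hepatocyte scaling called 1 member, lower, and leaving out 1 library called 0. For the interaction DESeq2 called 1 of the 4 members to which it gave an adjusted p, hepatocyte scaling 4 (UNC93B1 higher; DHX58, irf9 and stat2 lower; ticam1 lost), the muscle covariate 0, leaving out replicates 3 and 4 called 0, and leaving out 1 library 0 to 2. The cause of these shifts was not tested.

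Deviations from group means were not alike in same-numbered libraries (24 pairs, r from -0.194 to 0.0575), and differently numbered ones reached -0.178 and 0.167. Such correlations also hold tissue make-up and cannot exclude a shared clutch or day. Whether the numbers pair libraries is therefore not known. With the replicate number as a block 5, 0, 1, 0 and 2 members were called in the 5 comparisons in the order above, without mavs (-0.70, adjusted p = 0.0622) in DMSO.

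Counts over all genes moved more. The 2916 calls in DMSO, 1144 higher and 1772 lower, became 4643 higher and 1029 lower under library-size scaling, 14955 and 145 under hepatocyte scaling, 667 and 595 with the muscle covariate, and 1430 in all without replicates 3 and 4. The 179 in palbociclib (108 higher, 71 lower) became 336 with DESeq2 (166 and 170), 301 under library-size scaling, 189 under hepatocyte scaling (163 and 26), 449 with the muscle covariate, 278 without replicates 3 and 4 and 115 with the block. The 976 in controls (237 higher, 739 lower) became 1465 (1072 and 393) and 7614 (7562 and 52) under library-size and hepatocyte scaling, 351 with only the groups compared, 55, 264 and 48 with the muscle covariate, the block and without replicates 3 and 4. The 93 in mutants (7 higher, 86 lower) became 164 with DESeq2 (31 and 133), 140 (36 and 104) and 641 (2 and 639) under these scalings, 175 with only the groups compared, 367 with the muscle covariate and 59 with the block. The 339 interactions (296 higher, 43 lower) became 615 with DESeq2, 393 (250 and 143) and 10814 (14 and 10800) under these scalings, 134 with the block and 71 without replicates 3 and 4. Leaving out 1 library gave 2094 to 3454 calls in DMSO, 96 to 318 in palbociclib (lowest without control replicate 2, highest without control replicate 5), 272 to 2019 in controls (without DMSO replicates 4 and 2), 39 to 116 in mutants (39 without DMSO replicate 1) and 170 to 843 for the interaction (without control DMSO replicates 4 and 2). These counts moved by over 1.5 times in 0, 4, 5, 4 and 8 of the 18 fits, and the shares of all genes called rest on them. Low counts limit IFIH1, tlr3, ticam1 and irf9.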
